A study of Mus musculus with 16 samples.

Results

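The granins and hormone-processing genes of the dense-core secretory granule were followed across 16 mouse prostate arrays. They are the granins Chga, Chgb, Scg2 and Scg3, the granin-like genes Scg5, Vgf and Resp18, and the processing enzymes Pcsk1, Pcsk2 and Cpe. They were listed by name, and 8 of the 10 had a probe among the 25697 probes and 16593 named genes of the table. Chga had 3 probes and the other members 1 each, which gives 10 probes, and where a gene had several, the probe with the highest mean over the 16 arrays stands for it. No probe carried the names Pcsk2 or Cpe, and these genes were not analysed here.

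Dense-core granules store peptide hormones in endocrine cells, neuroendocrine cells and neurons, and release them when calcium rises. Granins are acidic proteins that aggregate in the trans-Golgi network, help the granule to form and are themselves cut into peptides. The convertases encoded by Pcsk1 and Pcsk2 cut prohormones at pairs of basic residues, and carboxypeptidase E, encoded by Cpe, trims the basic residues left behind. Chromogranin A, the product of Chga, is a widely used tissue and serum marker of neuroendocrine tumours, including those of the prostate, whose normal gland holds few neuroendocrine cells.

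All treated mice were TRAMP animals, which carry SV40 T antigen under the prostate-specific probasin promoter. They had received vehicle, AGN, a root extract of Angelica gigas Nakai, or D/DA, the pyranocoumarins decursin and decursinol angelate, at doses that the labels do not state. The carcinoma arrays held 3 neuroendocrine carcinomas (NECa) of AGN mice, 3 NECa of vehicle mice and, for reference, 2 whole prostates of wild-type (WT) mice aged 24 to 28 weeks. The dorsal-lateral prostate (DLP) arrays held 1 array each of D/DA, AGN and vehicle TRAMP mice and of WT mice at 16 and at 28 weeks. The sources used here give no age for the carcinoma mice, and the strain field of the 2 WT whole prostates names TRAMP although their label says wild type. The series' design text counts 10 and 14 mice for AGN DLP and 11 and 13 for D/DA DLP at 16 and 28 weeks, beside 1 array each, and does not say whether an array holds RNA of 1 mouse or of several. It says as little of the carcinomas and WT prostates, so p-values measure the spread between these arrays, which may be technical. In bulk tissue, a change in the number of granule-bearing cells and a change in RNA per cell cannot be told apart.

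The values were normalized probe intensities on a linear scale, on which each array's lowest value lay between 113 and 139 and its median between 151 and 166. A probe near 150 is therefore close to background, log2 differences of such probes are understated, and levels of different probes are not set against each other. Among the 8 members, 7 had a mean log2 level over the 16 arrays above the median over probes, 7.35, and Pcsk1 at 7.14 did not. These means include the carcinomas. Over the 10 other arrays Chga at 7.15, Vgf at 7.20 and Scg3 at 7.33 also lay below 7.35, while Chgb, Scg2, Scg5 and Resp18 lay above it. The tissue labels were checked on markers. Of 8 measured neuroendocrine markers of 9 listed, the mean log2 level was 9.18 to 9.66 in AGN NECa and 9.48 to 9.77 in vehicle NECa, against 7.52 and 7.53 in WT whole prostates. Against WT, 4 of the 8 markers were called higher in AGN NECa and 6 in vehicle NECa, beside 14.4% and 12.4% of all probes. The other markers did not pass, and Neurod1 stayed between 135 and 156 on all these 8 arrays. Of 8 measured prostate luminal markers of 9 listed, the mean log2 level was 7.43 to 8.40 in AGN NECa and 7.20 to 7.65 in vehicle NECa, against 12.4 and 12.7 in WT whole prostates. Hoxb13, which is on this list, lay between 129.7 and 172 on all 16 arrays. 2 carcinoma arrays stood apart from the others: vehicle NECa 1 had the highest mean log2 level of 9 fibroblast markers, 10.00 against 8.07 to 9.11 on the other carcinoma arrays, and AGN NECa 2 the highest luminal level, with Msmb at 2777.

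Chga, which encodes chromogranin A, was high on every carcinoma array and near background on every other array. Its main probe read 1501, 1219 and 1843 in AGN NECa and 1335, 1150 and 1395 in vehicle NECa, against 147 and 151 in WT whole prostates. It lay between 137 and 146 with a median of 140 on the 6 TRAMP DLP arrays, and read 142 and 139.7 on the WT DLP arrays. The carcinomas did not overlap with any other array. The second probe averaged 1252 ± 262 (SD) over the 3 AGN NECa and 869 ± 25.4 over the 3 vehicle NECa, against 143 ± 9.83 over the 2 WT whole prostates. The third averaged 836 ± 124 (SD) over the AGN NECa and 708 ± 75.2 over the vehicle NECa, against 152 ± 12.5 over the WT whole prostates. All 3 probes therefore showed the same separation.

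Chgb encodes chromogranin B, which shares the granule core with chromogranin A. It read 1815, 752 and 1052 in AGN NECa and 1484, 2299 and 1309 in vehicle NECa, against 175 and 203 in WT whole prostates. On the TRAMP DLP arrays it lay between 152 and 189.9 with a median of 159.6, and on the WT DLP arrays it read 154 and 183. Every carcinoma was above every other array, and the carcinomas themselves spread 3.06-fold between the lowest, AGN NECa 2, and the highest, vehicle NECa 2.

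Scg3 encodes secretogranin III, which binds chromogranin A and the cholesterol-rich granule membrane. It read 1511, 1644 and 1219 in AGN NECa and 1006, 1386 and 1337 in vehicle NECa, against 166 and 166 in WT whole prostates. It lay between 150.5 and 162 with a median of 157 on the TRAMP DLP arrays and read 157 and 178 on the WT DLP arrays. The carcinoma arrays spread 1.64-fold and stood clear of all others.

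Scg2 encodes secretogranin II, the precursor of the peptide secretoneurin. It read 194, 146 and 212 in AGN NECa and 636, 563 and 265 in vehicle NECa, against 167 and 201 in WT whole prostates. The vehicle carcinomas lay above all other arrays, vehicle NECa 3 by little, while of the AGN carcinomas AGN NECa 1 lay within the range of the 10 gland arrays, AGN NECa 2 below it and AGN NECa 3 above it. On the TRAMP DLP arrays Scg2 lay between 156 and 184 with a median of 165, and on the WT DLP arrays it read 189 and 199.

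Of the granin-like genes, Scg5 encodes a chaperone that escorts the Pcsk2 convertase to the granule. It read 1622, 1874 and 1622 in AGN NECa and 1741, 2172 and 1917 in vehicle NECa, against 216 and 217 in WT whole prostates. It lay between 178 and 205 with a median of 195 on the TRAMP DLP arrays and read 242 and 269.6 on the WT DLP arrays, so both WT DLP arrays lay above all TRAMP DLP arrays. Vgf encodes a neurotrophin-induced peptide precursor. It read 253, 195 and 216 in AGN NECa and 308, 226 and 242 in vehicle NECa, against 167 and 159.6 in WT whole prostates. All carcinomas were above all other arrays, by less than the other granin-like genes were.

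Resp18 encodes the regulated endocrine-specific protein of the secretory pathway in endocrine cells. It read 1339, 549.8 and 566 in AGN NECa and 2161, 2449 and 1604 in vehicle NECa, against 199 and 215 in WT whole prostates. It lay between 172 and 216 with a median of 201 on the TRAMP DLP arrays and read 214 and 244 on the WT DLP arrays. The carcinomas were above all other arrays, and the AGN carcinomas were below the vehicle carcinomas without overlap.

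The only processing enzyme with a probe, Pcsk1, stayed at background. It read 152, 143 and 151 in AGN NECa and 139.6, 152 and 146 in vehicle NECa, against 139 and 139 in WT whole prostates. Over the TRAMP DLP arrays it ranged from 129 to 145 and over the WT DLP arrays from 131 to 147. No array had Pcsk1 above its own median.

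**Figure D1:**
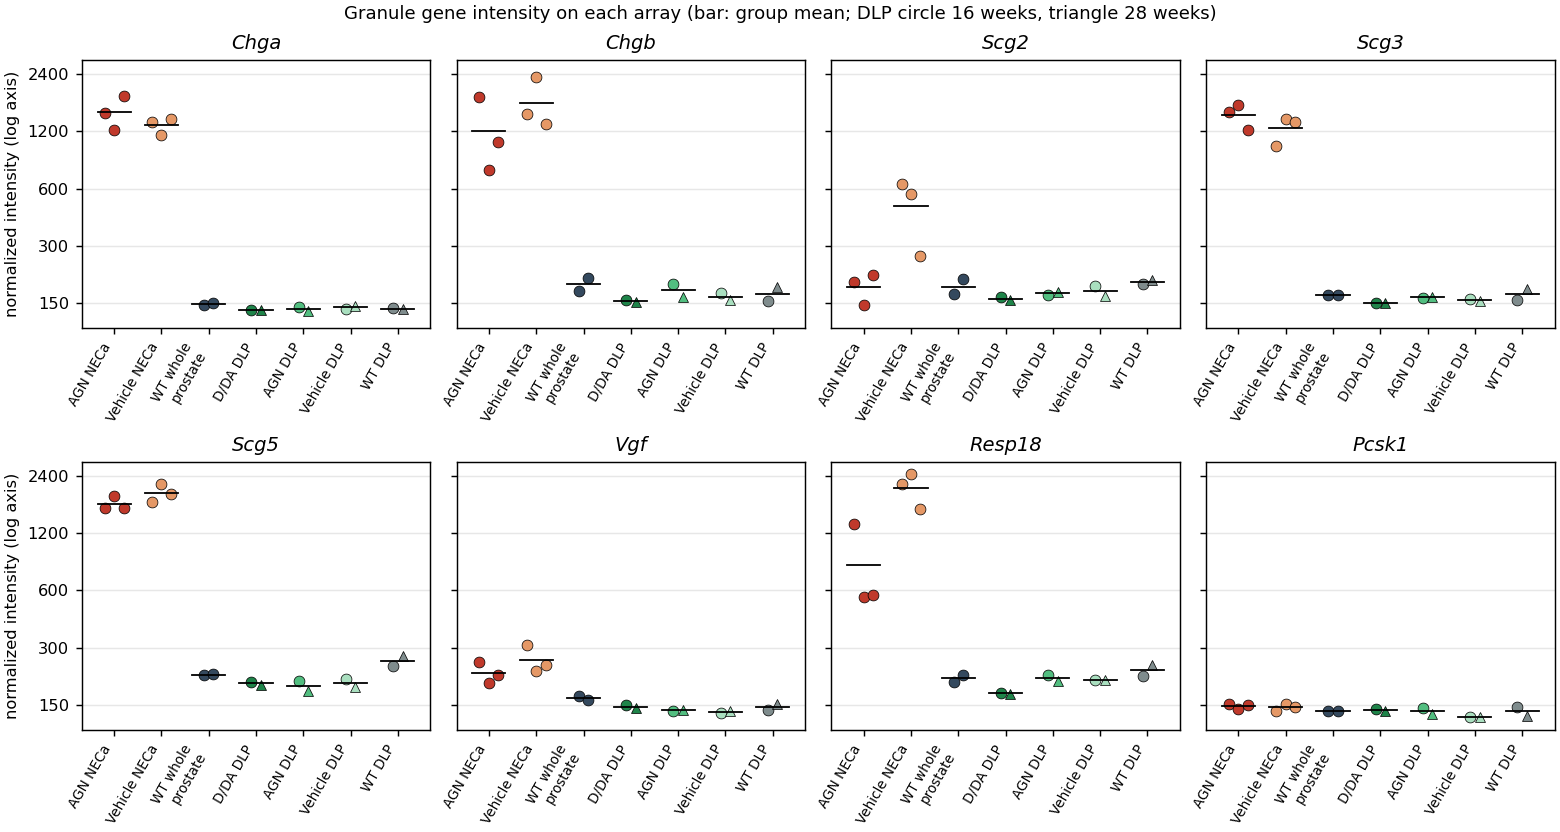
Normalized intensity (log axis) of the main probe of each member, 1 point per array, by group from AGN NECa on the left to WT DLP on the right, with a bar at the group mean. DLP circles are 16 weeks and triangles 28 weeks. Chga, Chgb, Scg3, Scg5 and Resp18 are high on the 6 carcinoma arrays, Scg2 is highest in vehicle NECa, Vgf is moderately higher in NECa, and Pcsk1 stays near 150 throughout.

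Promoter sequence was set beside these patterns because the members differ in how they moved between carcinomas. RefSeq promoters of the mouse assembly GRCm38.p6, 250 bases before to 50 after the transcript start, were at hand for 8 members, all but Vgf and Cpe. The 4 shown are those of Chga and Chgb, which were high in all carcinomas, and of Scg2 and Resp18, whose AGN and vehicle carcinomas did not overlap. Each runs 5′ to 3′ from 120 bases before the start to 15 after it. The Chga stretch is chr12:102554821-102554955 on the plus strand, Chgb is chr2:132781522-132781656 on the plus strand, Scg2 is chr1:79440012-79440146 on the minus strand and Resp18 is chr1:75278401-75278535 on the minus strand. Capitals mark the motif matches described next.
Chga: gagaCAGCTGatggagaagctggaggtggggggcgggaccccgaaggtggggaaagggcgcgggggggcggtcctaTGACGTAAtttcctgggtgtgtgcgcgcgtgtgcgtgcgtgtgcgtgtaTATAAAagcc
Chgb: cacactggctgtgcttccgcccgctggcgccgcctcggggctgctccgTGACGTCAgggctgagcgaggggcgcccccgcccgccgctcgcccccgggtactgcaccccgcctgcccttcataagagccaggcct
Scg2: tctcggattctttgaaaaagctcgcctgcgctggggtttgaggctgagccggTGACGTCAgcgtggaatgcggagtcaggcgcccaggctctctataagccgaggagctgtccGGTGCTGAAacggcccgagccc
Resp18: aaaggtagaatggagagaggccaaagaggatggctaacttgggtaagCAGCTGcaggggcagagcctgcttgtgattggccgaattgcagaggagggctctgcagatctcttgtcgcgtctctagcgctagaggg

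The cAMP response element TGACGTCA, a palindrome bound by CREB family factors, was found in the 300 bases of 3 of the 8 member promoters, at positions -72 to -65 from the start in Chgb, -68 to -61 in Scg2 and -78 to -71 in Pcsk1. It occurs in 1.79% of the 32851 promoters of the table. Chga holds the variant TGACGTAA, searched on both strands after its promoter had been seen, at positions -44 to -37, and 0.499% of promoters hold these letters. The E-box CAGCTG, a palindrome bound by basic helix-loop-helix factors, was found in Chga, Chgb, Resp18 and Pcsk2 and in 16.3% of all promoters. The second E-box of Chga and that of Resp18 lie in the stretches shown. The TATA box TATAAA, searched on both strands, was found only in Chga among the members, at bases 6 to 11 of the annotated transcript, and in 13.6% of all promoters. Other forms of this box were not searched, and the Scg2 stretch shown holds tataag, which differs in the last letter. TTCAGCACC is the left part of the site of the repressor Rest, which keeps neuronal genes off in other cells. Searched on both strands, it was found among the members only in Scg2, on the minus strand of the transcript from position -7 to 2, and in 0.371% of all promoters. Scg3 and Scg5 had none of these letters in the window, and for Scg3 and Pcsk1 the table's start lies inside the gene's RefSeq span. These matches overlap no other motif searched and describe letters, not binding. The members that hold the cAMP response element include Chgb, Scg2 and Pcsk1, which had 3 different patterns on the arrays.

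**Figure D2:**
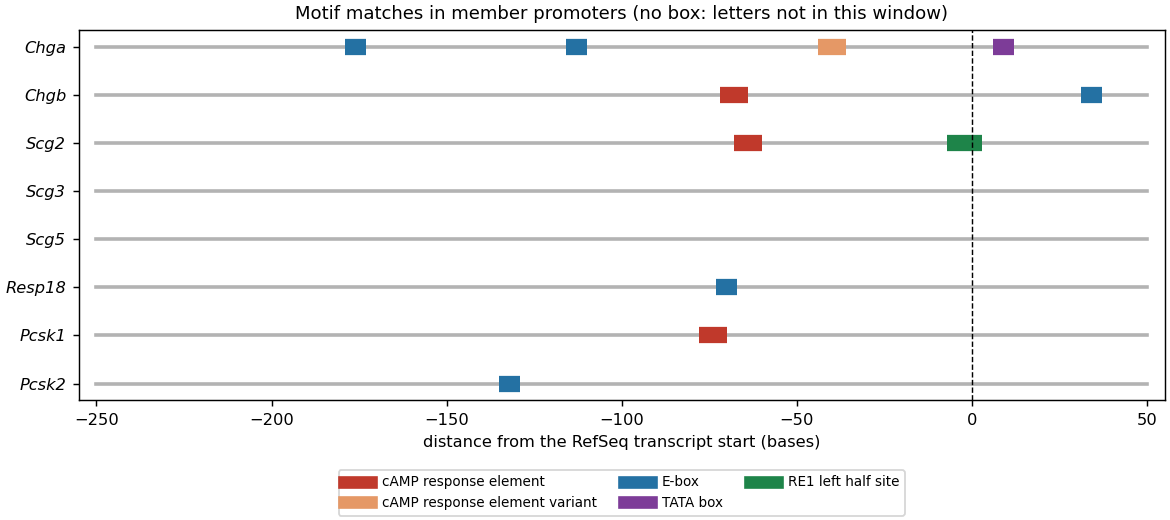
Positions of the motif matches in the 8 member promoters, 1 line per gene, against the distance in bases from the RefSeq transcript start (dashed line), over 250 bases before to 50 after it. Boxes for the cAMP response element in Chgb, Scg2 and Pcsk1 lie between positions -78 and -61, and Scg3 and Scg5 have no box.

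The first comparison set the carcinomas against the normal gland. In vehicle NECa all 7 granins and granin-like genes rose against WT whole prostates and Pcsk1 did not pass the test. Resp18 rose 9.87-fold, by 3.30 ± 0.34 on the log2 scale (SE of the limma fit; adjusted p = 1.56e-05), Scg5 by 3.16 ± 0.16 (adjusted p = 9.2e-08) and Chgb by 3.13 ± 0.33 (adjusted p = 2.05e-05). Chga rose 8.66-fold, by 3.11 ± 0.19 (adjusted p = 2.89e-07), with its other probes at 2.61 and 2.22, and Scg3 by 2.89 ± 0.19 (adjusted p = 4.96e-07). Scg2 rose less, by 1.32 ± 0.31 (adjusted p = 0.00613), and Vgf by 0.65 ± 0.15 (adjusted p = 0.00485). Pcsk1 differed by 0.07 ± 0.06 (adjusted p = 0.439), with a 95% interval of -0.05 to 0.19. Over all probes 12.4% were called higher and 16.3% lower in this comparison, and no member was called lower. The members' median log2 difference was 3.00, beside -0.01 over all genes. The Scg2 call was lost without WT whole prostate 1 (1.19, adjusted p = 0.0522) and with array weights (0.71, adjusted p = 0.11).

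In AGN NECa 6 members rose against the same WT arrays, and Scg2 and Pcsk1 did not pass. Chga rose 10.1-fold, or 3.33 ± 0.19 in log2 (limma adjusted p = 1.82e-07), Scg3 by 3.12 ± 0.19 (adjusted p = 2.9e-07), Scg5 by 2.97 ± 0.16 (adjusted p = 1.4e-07) and Chgb by 2.58 ± 0.33 (adjusted p = 8.72e-05). Resp18 rose 3.61-fold, by 1.85 ± 0.34 (adjusted p = 0.00113). Vgf rose by 0.43 ± 0.15 (adjusted p = 0.0433), a call that was lost without WT whole prostate 1 (adjusted p = 0.111) or 2 (0.169), without AGN NECa 1 (0.137) or 3 (0.0796), and under 3 other settings. Scg2 differed by -0.01 (adjusted p = 0.986), with a 95% interval of -0.68 to 0.66. Over all probes 14.4% were called higher and 16.5% lower, no member was lower, and the members' median was 2.22 beside 0.03 over all genes. Both carcinoma comparisons use the same 2 WT arrays, so they are not independent of each other. Other tissues' markers moved with them: over 8 skeletal muscle markers the mean log2 level was 7.38 to 7.73 on the 6 carcinoma arrays, against 11.97 and 9.33 in WT whole prostates, and over 8 seminal vesicle genes it was 7.21 to 7.42, against 13.0 and 11.5. Over 8 smooth muscle markers it was 8.02 to 10.56, against 11.87 and 11.74, and all 8 fell in both comparisons. Over 5 of 6 adipocyte markers it was 7.22 to 7.57, against 8.15 and 8.91, and 3 fell in AGN NECa and 4 in vehicle NECa. Their part in the members' differences was not tested.

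Rest, the repressor named above, had 144 to 157 on the AGN NECa arrays and 145 to 150.3 on the vehicle NECa arrays, against 141 and 157 in WT whole prostates, and its log2 difference in vehicle NECa was -0.01 (limma adjusted p = 0.96). It was near background in every group.

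The second comparison set AGN carcinomas against vehicle carcinomas, on these 6 arrays alone. No member passed the limma test over all probes, against 0.0389% of probes, or 10, called in either direction. At an unadjusted p under 0.05 there were 1578 probes, among them 2 members. These were Resp18, which differed by -1.45 ± 0.31 on the log2 scale (95% interval -2.14 to -0.76; adjusted p = 0.168), a 2.73-fold lower geometric mean in AGN NECa, and Scg2, which differed by -1.33 ± 0.28 (95% interval -1.94 to -0.71; adjusted p = 0.163), 2.51-fold lower. Both had groups that did not overlap, with all 3 AGN carcinomas below all 3 vehicle carcinomas, as did 3.94% of all probes. A further 7.31% of probes did not overlap in the other direction. The exact two-sided permutation test gave p = 0.1 for each, the smallest that 3 against 3 arrays allow. This value follows from the lack of overlap and adds nothing to it.

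Single arrays and the fitting choice decided these calls. Without vehicle NECa 3, the vehicle array with the lowest Scg2, Scg2 passed at -1.72 (limma adjusted p = 0.000582). Without AGN NECa 1, the AGN array with the highest Resp18, Resp18 passed at -1.87 (adjusted p = 0.00165). Both passed when all 16 arrays shared 1 spread (adjusted p = 0.0207 for Scg2 and 0.0196 for Resp18). The 10 arrays added there varied less than the carcinomas. For Scg2 the SD of log2 levels was 0.13 over them, against 0.278 in AGN NECa and 0.683 in vehicle NECa. For Resp18 it was 0.148, against 0.73 and 0.314. The shared spread is therefore not that of the carcinomas alone. Over all alternatives run, the adjusted p ranged from 9.15e-08 to 0.591 for Scg2 and from 1.41e-06 to 0.618 for Resp18, and both differences were negative in each. The lowest of these p came from a replicate block, in a fit by array numbers that the labels do not pair. Of 14 markers of autonomic ganglion neurons 13 were measured, and none of them passed between these groups. Their mean log2 level ran the same way as both genes and was 7.81, 7.58 and 7.98 in AGN NECa, against 8.21, 8.63 and 8.05 in vehicle NECa, without overlap. Of this list, Dbh, Hand2, Chrnb4 and Nefl lay between 131 and 156 on all 6 carcinoma arrays, while Nefm read 216, 210.4 and 287 in AGN NECa and 721, 806 and 349 in vehicle NECa. In NECa against TRAMP DLP 5 of the 13 were called higher and 2, Npy and Vip, lower, beside 58.4% and 19.5% of all probes. The list thus moved in both directions, and the part of such cells in the Scg2 and Resp18 differences was not tested.

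The other members did not pass between the carcinoma groups. Chgb differed by -0.55 (95% interval -1.22 to 0.13), Vgf by -0.22 (-0.53 to 0.08), Scg5 by -0.19 (-0.52 to 0.15), Scg3 by 0.23 (-0.17 to 0.63) and Chga by 0.22 (-0.18 to 0.61), each with a limma adjusted p of 0.885. Pcsk1 differed by 0.03 (-0.09 to 0.15; adjusted p = 0.905). The second Chga probe was higher in all 3 AGN carcinomas than in all 3 vehicle carcinomas, by 0.51 (0.13 to 0.88, limma adjusted p = 0.55). So were 7.31% of all probes, and the other 2 Chga probes overlapped. The members' median was -0.20, beside 0.04 over all genes.

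**Figure D3:**
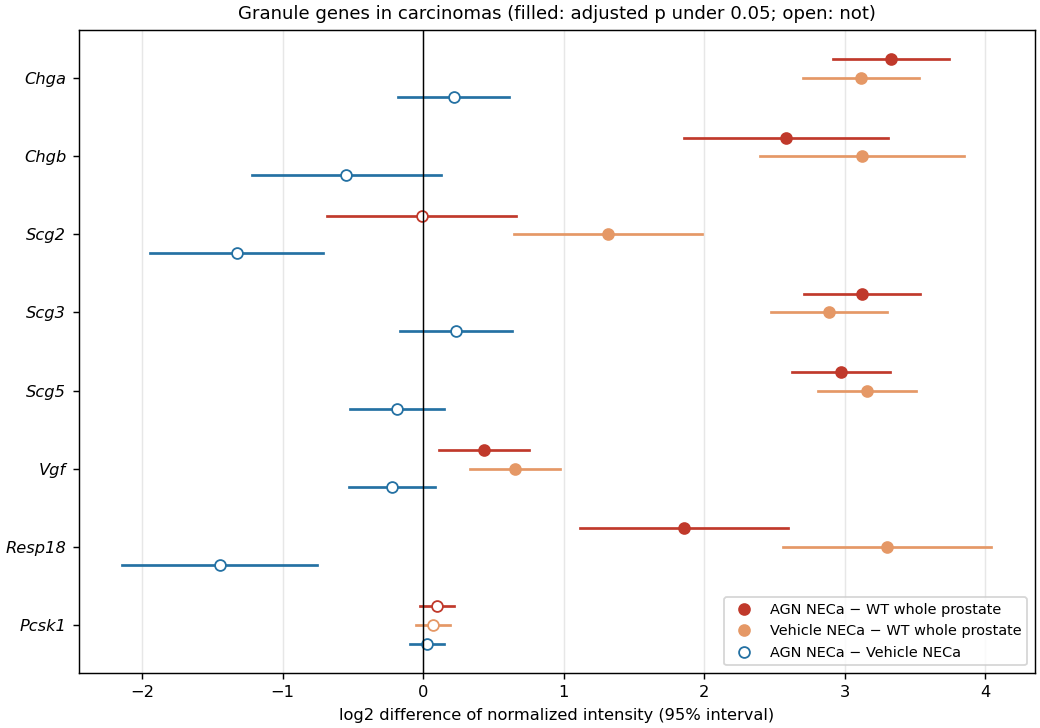
Log2 difference of each member's main probe with its 95% interval for AGN NECa against WT whole prostate, vehicle NECa against WT whole prostate and AGN NECa against vehicle NECa, with filled points where the adjusted p is under 0.05. The first 2 comparisons lie near 3 for Chga, Scg3 and Scg5, Scg2 is filled only for vehicle NECa against WT, and the intervals of Scg2 and Resp18 lie below 0 for AGN against vehicle with open points.

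Within the carcinomas the members varied by different amounts. The ratio of the highest to the lowest of the 6 arrays was 1.34 for Scg5, 1.59 for Vgf, 1.60 for Chga, 1.64 for Scg3, 3.06 for Chgb, 4.34 for Scg2 and 4.45 for Resp18. Vgf and Scg2 lay closer to background than the others, which understates their ratios, so the order of the genes is not read from them. Chgb, Scg2 and Resp18 all had their lowest value in AGN NECa 2, while Chgb and Resp18 had their highest in vehicle NECa 2 and Scg2 in vehicle NECa 1. Scg3 ran differently, with its highest value in AGN NECa 2 and its lowest in vehicle NECa 1. Over the AGN arrays Chgb and Resp18 both ran from AGN NECa 1 at the top to AGN NECa 2 at the bottom, while Scg2 was highest in AGN NECa 3.

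**Figure D4:**
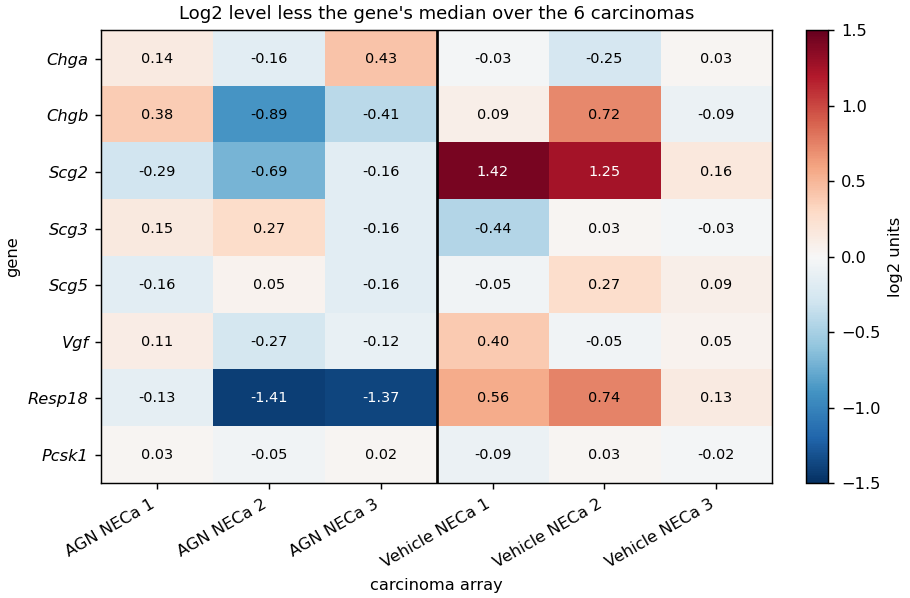
Log2 level of each member on each carcinoma array less that gene's median over the 6 carcinomas, with AGN NECa left and vehicle NECa right of the line. Scg2 and Resp18 are below 0 in all AGN NECa and above 0 in all vehicle NECa, and Scg5 and Pcsk1 stay closest to 0.

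Carcinomas were also set against the TRAMP gland, as 6 NECa and 6 TRAMP DLP arrays that carry the same transgene. All 8 members were called higher in NECa, but so were 58.4% of all probes, so the count alone says little about them. The members' median difference was 2.86, beside 0.11 over all genes. Chga was up by 3.31 ± 0.10 in log2 (limma adjusted p = 1.52e-13), Scg5 by 3.23 ± 0.08 (4.7e-14), Scg3 by 3.09 ± 0.10 (3.67e-13) and Chgb by 3.06 ± 0.20 (1.53e-09). Resp18 rose by 2.67 ± 0.32 (2.05e-06), Scg2 by 0.78 ± 0.29 (0.0214) and Vgf by 0.75 ± 0.08 (1.13e-06). This fit had a common mean for each tissue, so treatment and age lay in the spread. The mean log2 level of Scg2 was 7.506 in AGN NECa and 8.833 in vehicle NECa, against 7.385 in TRAMP DLP. Its pooled rise therefore lay mainly in the vehicle carcinomas. Pcsk1 was called at 0.11 ± 0.04 (0.0129), the size of the shift of all genes, and its sign turned with quantile normalization (-0.01) and with normexp background correction (-0.06). The Scg2 call was lost without vehicle NECa 2 (0.59, adjusted p = 0.0515) and with median centring (0.70, adjusted p = 0.0614) or normexp (0.96, adjusted p = 0.0814). Across all arrays, 6 members had all 6 carcinomas above all 10 other arrays, as did 12.8% of probes. The exceptions were Scg2 and Pcsk1. The 2 tissues also differed in other markers. All 8 seminal vesicle, 8 skeletal muscle and 8 smooth muscle markers were called lower in NECa, beside 19.5% of all probes. Of 8 luminal markers 7 were called lower and 1 higher. Of 5 endothelial markers 4 were called higher, and of 5 macrophage markers 3 were higher and 1 lower. Their part in the members' differences was not tested.

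In the DLP the granule genes stayed low, with 269.6 for Scg5 as the highest value of any member's main probe, and Scg5 alone was called. Vehicle TRAMP DLP was set against WT DLP with 2 arrays a group, 1 at each age. Scg5 was called at a log2 difference of -0.39 ± 0.10 (limma adjusted p = 0.0422), with 205 and 185 in vehicle DLP, against 242 and 269.6 in WT DLP. In this comparison 4.48% of probes were called lower. The Scg5 call was lost when single arrays were left out: adjusted p was 0.141 without the 16-week vehicle array, 0.0849 without the 16-week AGN array, 0.0686 without the 16-week D/DA array, 0.104 without the 28-week WT array, 0.199 without the 28-week vehicle array, 0.0865 without the 28-week AGN array and 0.0683 without the 28-week D/DA array. The other members differed by -0.17 (Resp18) to 0.03 (Chga) and did not pass, and the members' median was -0.10, beside -0.07 over all genes. All 6 TRAMP DLP arrays lay below both WT DLP arrays for Scg5 and Scg2, as they did for 19.4% of probes. Markers of some other cells ran the same way without overlap. The mean log2 level of the 8 luminal markers was 11.08 to 11.70 in TRAMP DLP, against 12.36 and 12.29 in WT DLP, and 4 of them were called lower in vehicle DLP. That of the 8 smooth muscle markers was 10.76 to 11.16 in TRAMP DLP, against 11.50 and 11.61 in WT DLP, with 2 called lower, and that of 5 of 6 endothelial markers was 7.54 to 7.71, against 7.76 and 7.98, with 0 called. The 8 neuroendocrine markers were also lower without overlap, at 7.28 to 7.36 in TRAMP DLP, against 7.38 and 7.42 in WT DLP, with 0 called. The 9 fibroblast markers overlapped, at 9.02 to 9.54 in TRAMP DLP, against 9.36 and 9.60 in WT DLP. The 8 seminal vesicle genes overlapped too, at 10.97 to 13.54 in TRAMP DLP, against 11.88 and 13.77 in WT DLP. So did the 13 ganglion neuron markers, at 7.647 to 7.879 in TRAMP DLP, against 7.824 and 8.074 in WT DLP, with 0 called. Adipocyte markers ran the other way, with 3 of 5 called higher in vehicle DLP, beside 3.02% of all probes. The part of these cells in the Scg5 difference was not tested.

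Treatment and age left no called difference among the members in the DLP. For D/DA against vehicle DLP limma called 0% of probes, with 2157 at an unadjusted p under 0.05, among them Resp18 and Pcsk1. Resp18 read 174 and 172 in D/DA DLP at 16 and 28 weeks, against 203 and 202 in vehicle DLP, a difference of -0.23 ± 0.09 (adjusted p = 0.582), and was lower at both ages. Pcsk1 read 143 and 140.1 in D/DA DLP, against 129 and 129 in vehicle DLP, a difference of 0.13 ± 0.05 (adjusted p = 0.582) between values at background. For AGN against vehicle DLP limma also called 0% of probes, with 1168 at an unadjusted p under 0.05 and no member among them, and the members differed by -0.04 (Scg5) to 0.11 (Chgb). For 28 against 16 weeks, over the 8 DLP arrays, 0.0778% of probes were called, no member was among them, and the members differed by -0.07 (Pcsk1) to 0.04 (Scg3). The 95% interval that reached farthest from 0 was that of Scg5, -0.20 to 0.10.

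Whether the AGN difference was unlike in carcinomas and in DLP was tested as an interaction over all 16 arrays. No member passed and 0.0156% of probes did, with 1331 at an unadjusted p under 0.05. The difference between the AGN effects was -1.49 ± 0.42 for Resp18 (limma adjusted p = 0.489) and -1.29 ± 0.39 for Scg2 (adjusted p = 0.558). Without AGN NECa 1 the Resp18 interaction passed, and without vehicle NECa 3 the Scg2 interaction did.

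Genes of the same pathway moved in both directions. Beside their counts in vehicle NECa stand the 12.4% of all probes called higher and 16.3% called lower, and beside those in AGN NECa 14.4% and 16.5%. Of 18 listed genes for other steps of prohormone processing 15 were measured, and in vehicle NECa 2 rose, 7 fell and 6 did not pass against WT whole prostates, with a list median of -0.22. Furin, the convertase of the constitutive pathway, read 737, 714 and 840.1 in AGN NECa and 919, 649 and 701 in vehicle NECa, against 3876 and 2878 in WT whole prostates. In log2 its difference in vehicle NECa was -2.16 ± 0.20 (limma adjusted p = 6.85e-06). Qpct, a glutaminyl cyclase that caps peptide ends, rose by 2.10 ± 0.39 (adjusted p = 0.00134), and Ctsh, an aminopeptidase of lysosomes, fell by 1.54 (adjusted p = 0.0425). Pcsk1n, chosen after its values were seen because it encodes an inhibitor of the Pcsk1 convertase, rose by 1.52 (adjusted p = 2.99e-05) while Pcsk1 did not pass. In AGN NECa 3 of these genes rose and 6 fell. The count of 7 that fell came to 4 without WT whole prostate 1, without WT whole prostate 2 or without vehicle NECa 3.

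Of 28 genes of the granule membrane and of granule formation 26 were measured, and in vehicle NECa 7 rose, 6 fell and 13 did not pass, with a median of 0.01. Svop rose by 2.74 ± 0.20 (limma adjusted p = 1.13e-06) and Sv2a by 2.66 ± 0.23 (adjusted p = 4.4e-06), both transporter-like proteins of secretory vesicles. Cyb561, which moves electrons into granules to renew ascorbate, fell by 2.65 (adjusted p = 0.000776). It read 349.8, 1149 and 1286 in AGN NECa and 907, 552 and 598 in vehicle NECa, against 4175 and 4241 in WT whole prostates. In AGN NECa 5 genes of this list rose and 7 fell.

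Of 33 genes of regulated exocytosis 30 were measured, and in vehicle NECa 9 rose, 5 fell and 16 did not pass, with a median of 0.00. Syt11, a synaptotagmin of neurons, rose by 3.45 ± 0.22 (limma adjusted p = 4.55e-07) and Syt1, the calcium sensor of fast release, by 3.23 ± 0.22 (adjusted p = 7.78e-07). Syt1 read 1340, 1784 and 1372 in AGN NECa and 1627, 1712 and 2430 in vehicle NECa, against 172 and 237 in WT whole prostates. Sytl1, a synaptotagmin-like partner of the Rab27 GTPases, fell by 3.39 (adjusted p = 6.32e-08). It read 157, 202 and 193 in AGN NECa and 208, 157 and 154 in vehicle NECa, against 1858 and 1728 in WT whole prostates. Rab3d, a GTPase of exocrine granules named after its values were seen, fell by 2.93 (adjusted p = 2.98e-07), and Rab3a, its neuronal relative, rose by 1.11 (adjusted p = 0.00632). In AGN NECa 11 of these genes rose and 7 fell. Between AGN and vehicle NECa limma called 0 genes of these 3 lists, beside 0.0389% of all probes. The lists, like the members, were chosen with earlier results of these arrays known, and their counts describe them only.

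The genes nearest to Chga over the 16 arrays were named by the root mean square difference of log2 levels, each gene centred on its own mean, among 16183 genes. They were Dpysl5 at 0.137, Diras1 at 0.159 and Crmp1 at 0.176. Dpysl5 ranged from 1389 to 1489 in AGN NECa and from 1106 to 1420 in vehicle NECa, and from 142 to 168 on the 10 other arrays. Crmp1 ranged from 1312 to 1765 in AGN NECa and from 1227 to 1589 in vehicle NECa, and from 133 to 167 on the 10 other arrays. Diras1 ranged from 1772 to 2041 in AGN NECa and from 1712 to 2036 in vehicle NECa, and from 146 to 186 on the 10 other arrays. The likeness describes these arrays, which share the split into carcinoma and gland. The gene nearest to Scg2, looked up after the values were seen, was Nefm at 0.211.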

How the data were processed

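Biotinylated cRNA of 16 total RNA samples was hybridised to Illumina mouse bead arrays, per the labels' protocols. The deposited series table held linear, normalized probe intensity values, and the submitters' processing notes name lumi, without a version. How the values were normalized and corrected for background is not given in the sources used here. Deposited values before normalization were left out: their 32 per-sample columns (16 signals) have names that matched no label. Detection p-values were therefore not used and no probe was filtered out. The number of arrays limits the precision.

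The platform annotation gave 23978 probes 1 symbol, 0 several and 1719 none. Groups came from the labels. The log2 intensities were tested by limma 3.58.1 under R 4.3.3 (lmFit, eBayes with an intensity trend). Calls were made at an adjusted p under 0.05 (Benjamini-Hochberg, 25697 probes). All tests were two-sided, and 9 comparisons were made. The carcinoma and WT whole prostate fit held 8 arrays, the AGN against vehicle NECa fit 6, the NECa against TRAMP DLP fit 12, the DLP fits 8 with additive terms for treatment and age, and the interaction 16. Alternatives were quantile normalization, median centring, normexp background correction with an offset of 50, only probes above the median level, a minimum absolute log2 fold change of 1, no trend, array weights, all 16 arrays in 1 fit, other Chga probes, a replicate block and each array left out. The fit was tested on simulated data for some of these comparisons, not for the interaction, and with large changes only. Replicates correlated with r of 0.969 to 0.987 across probes and shared 0 identical values.

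The named genes were all members with every probe, the 3 called genes with the largest change in vehicle NECa of each other pathway list, Rest, the tissue markers, and the 3 genes nearest to Chga. The members and lists were chosen with earlier results of these data known. Promoters came from RefSeq, matched by symbol, and figures were drawn with matplotlib 3.10.9.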

Additional observations from a re-analysis of the deposited data

How the results depend on the processing

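Over 1217 alternative values of the members, 1179 kept their side of the threshold, 25 fell short of it, 11 passed it and 2 called values turned sign. Of the 1179, 1131 kept their sign, and 48 that passed in neither fit turned it, with values from -0.12 to 0.15 under the alternatives. The 2 called values were Pcsk1 in NECa against TRAMP DLP, at -0.012 with quantile normalization and -0.059 with normexp background correction. In AGN against vehicle NECa the 0 members called became 2, Scg2 and Resp18, when all 16 arrays shared 1 fit, and 2 with a replicate block, and ranged from 0 to 1 when single arrays were left out. The array numbers pair nothing in the labels, and the deviations of same-numbered carcinomas correlated at -0.04, -0.26 and 0.16. Leaving out vehicle NECa 1 and AGN NECa 2, chosen after seeing the data, gave 0. In NECa against TRAMP DLP the 8 members called became 5 at a minimum log2 fold change of 1. In vehicle against WT DLP the 1 member called became 0 at that minimum, with median centring, normexp, no trend, array weights or all 16 arrays, and ranged from 0 to 1 with single arrays left out. The interaction ranged from 0 to 1. Pcsk1 passed with median centring in vehicle NECa (0.10, limma adjusted p = 0.0233) and AGN NECa (0.10, limma adjusted p = 0.0257) against WT, and in AGN NECa also without vehicle NECa 1 and AGN NECa 2 (0.125, limma adjusted p = 0.0491). Among exocytosis genes lower in vehicle NECa, 5 became 8 with normexp or array weights, and in AGN NECa 7 became 11 with normexp. The cause of these changes was not tested.

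Probes called higher and lower moved with the scaling. They were 15017 and 5013 in NECa against TRAMP DLP, 6304 and 5510 with quantile normalization, 7415 and 5927 with median centring and 4972 and 6823 with normexp. In vehicle NECa against WT they were 3181 and 4197, and 3060 and 9276 with normexp, and in AGN NECa 3713 and 4245, and 3186 and 9920. Vehicle against WT DLP gave 775 and 1152, 786 and 713 with quantile normalization, 917 and 641 with median centring and 835 and 776 with normexp. Normexp moved the median of all probes to -0.20 in vehicle NECa and -0.21 in AGN NECa against WT. A planned description of member proteins was not run. Members near 150 lie close to background, where small changes cannot be seen.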
